A study of Mus musculus with 6 samples.

Results

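The mRNAs of 8 genes that make cholesterol or control its synthesis, Hmgcs1, Sqle, Idi1, Fdps, Fdft1, Cyp51, Insig1 and Srebf2, were compared between the spleens of garlic-fed and control mice. The genes were chosen by name, and every probe set that the array annotation gives to 1 of them alone was kept. This gave 20 of the 45037 probe sets of the array, and each of the 8 genes had at least 1. The spleens came from male C57BL/6J mice that were 8 weeks old at the start and were fed for 15 weeks, ad libitum, on a base diet of casein, sucrose, cornstarch and soybean oil with minerals, vitamins, choline and L-cysteine. The 3 control mice received this diet with 4% cellulose, and the 3 garlic-fed mice received it with 4% lyophilized raw garlic powder in its place. Each spleen was measured on 1 Affymetrix array, on which a probe set of short oligonucleotides reads each mRNA and its signal is the brightness of the labeled RNA bound to it. RNA was taken from the whole organ, so fewer cells of a type and less RNA per cell cannot be told apart.

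Cells build cholesterol from acetyl-CoA. HMG-CoA synthase (Hmgcs1) makes the precursor of mevalonate, the isomerase Idi1 and farnesyl diphosphate synthase (Fdps) turn mevalonate products into farnesyl diphosphate, squalene synthase (Fdft1) joins farnesyl units to squalene, squalene epoxidase (Sqle) oxidizes it, and Cyp51 removes a methyl group from lanosterol. The transcription factor SREBP2, the product of Srebf2, switches these genes on when sterols are scarce, together with the factors NF-Y and Sp1. Insig1 holds the SREBP precursor in the endoplasmic reticulum when sterols are plentiful, and is itself a target of SREBP. In the spleen, macrophages of the red pulp take up aged red blood cells with the cholesterol of their membranes, and dividing cells need sterols for new membranes. None of the 8 genes is itself a receptor for lipoproteins, and genes of sterol uptake were looked at in a list of their own.

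The promoters of Hmgcs1 and Insig1, each with a probe set whose signals were lower in every garlic-fed mouse, and of Srebf2, the gene of the factor itself, are shown as given by RefSeq on GRCm38.p6. Each runs from 250 bases before to 50 bases after the start of the gene, 5′ to 3′ on the strand of the gene, at chr13:119690101-119690400 (plus strand) for Hmgcs1, chr5:28071162-28071461 (plus strand) for Insig1 and chr15:82147019-82147318 (plus strand) for Srebf2. Capitals mark matches, on either strand, to TCACNCCAC, a form of the sterol regulatory element that SREBP binds, to CCAAT, the box of NF-Y (ATTGG on the other strand), and to GGGCGG, the GC box of Sp1 (CCGCCC on the other strand). No 2 of these matches overlap.
Hmgcs1: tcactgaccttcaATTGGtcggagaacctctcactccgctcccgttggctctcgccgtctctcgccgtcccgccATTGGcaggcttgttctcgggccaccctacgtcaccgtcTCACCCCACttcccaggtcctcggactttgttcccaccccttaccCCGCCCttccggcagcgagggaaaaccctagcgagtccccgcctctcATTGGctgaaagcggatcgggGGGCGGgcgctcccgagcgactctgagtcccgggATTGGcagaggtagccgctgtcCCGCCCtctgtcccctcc
Insig1: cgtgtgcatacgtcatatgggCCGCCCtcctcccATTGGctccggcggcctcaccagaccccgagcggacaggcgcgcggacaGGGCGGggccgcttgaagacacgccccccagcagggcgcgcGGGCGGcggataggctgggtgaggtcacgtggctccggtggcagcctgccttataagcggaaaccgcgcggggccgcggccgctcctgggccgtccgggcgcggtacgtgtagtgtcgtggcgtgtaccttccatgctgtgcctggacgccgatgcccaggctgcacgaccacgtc
Srebf2: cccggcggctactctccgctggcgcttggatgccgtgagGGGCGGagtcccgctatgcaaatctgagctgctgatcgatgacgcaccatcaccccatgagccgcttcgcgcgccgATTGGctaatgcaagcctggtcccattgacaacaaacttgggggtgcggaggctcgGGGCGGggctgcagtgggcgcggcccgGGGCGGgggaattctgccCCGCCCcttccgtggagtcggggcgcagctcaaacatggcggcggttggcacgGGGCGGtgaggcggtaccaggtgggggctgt

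Promoters were matched for 5 of the 8 genes, these 3 with Idi1 and Cyp51. The sterol element form was found in 1 of the 5, in Hmgcs1 at 137 to 129 bases before the start, and it is present in 1.24% of all 32851 promoters of this length in the table. CCAAT was found in 5 of 5 (37.4% of all promoters) and GGGCGG in 5 of 5 (35.7%). These matches describe the letters only, and a window without a match says nothing about binding by a factor.

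The deposited signals are on a linear scale, and the median signal of an array was 119.7 to 132.2. The signal ratio between the tail and the front of the Gapdh mRNA was 0.801 to 0.881 (controls) against 0.769 to 0.999 (garlic-fed). Groups were compared on log2 signals with limma over the 27022 probe sets above a filter on dim signals, with Benjamini-Hochberg adjustment, and fold changes are garlic-fed minus control on the log2 scale with a 95% interval. Of the 20 probe sets of the 8 genes, 15 passed the filter. The other 5 were dim and were not tested. The Fdps probe set 1438150_at had signals of 0.9 to 29.3, the Cyp51 probe set 1422534_at 3.1 to 54.8, the Fdft1 probe sets 1438918_at and 1438919_x_at 4.6 to 76 and 6.1 to 38.1, and the Hmgcs1 probe set 1441536_at 36.7 to 85.7. In all of these 5 the groups overlapped. A gene with several probe sets is represented by the one of highest mean log2 signal, called the brightest here, and signals of different probe sets are not compared as levels.

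No probe set of the 8 genes passed the adjusted threshold of 0.05 (0 of 15, against 0.237% of all probe sets tested), and none met the study's criterion of a fold above 1.8 with an unadjusted p under 0.05 (0 of 15, against 1.52%). At an unadjusted p under 0.05, 2 of 15 were lower, 1 of Hmgcs1 and the 1 of Insig1, where 5.44% of all probe sets were lower. At the same threshold 1 of 15 was higher, a probe set of Srebf2, where 5.58% of all were higher. The methods' own test, run on the same log2 signals, gave equal counts of 1 higher and 2 lower, and no call after adjustment. Without single arrays, 0 to 2 were lower (0 without control mouse 1 or garlic-fed mouse 1) and 0 to 1 higher (0 without control mouse 2, control mouse 3 or garlic-fed mouse 2). None was lower when each array was centred on its median.

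**Figure D1:**
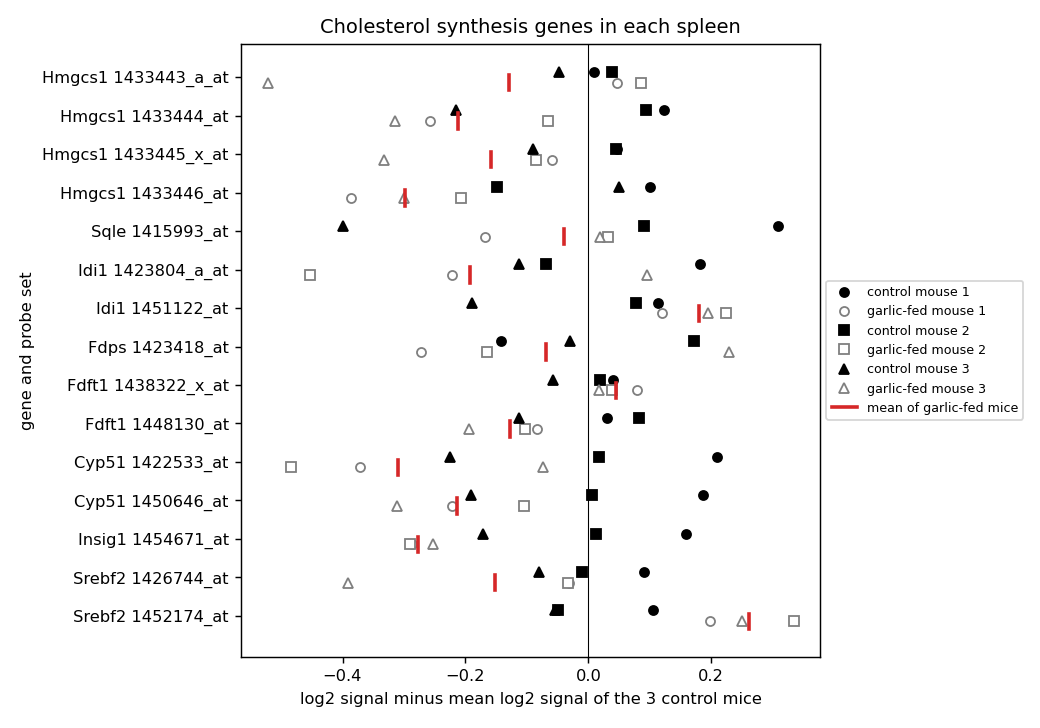
Log2 signal of each of the 15 tested probe sets in each spleen (x axis, with the mean of the 3 controls set to 0), by gene and probe set (y axis). Filled symbols are control mice, open symbols garlic-fed mice, with 1 shape for each mouse number, and red bars are means of the garlic-fed mice. All 3 garlic-fed mice lie below the controls in Insig1 and in 1433446_at of Hmgcs1, and above them in 1451122_at of Idi1 and 1452174_at of Srebf2.

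Hmgcs1 encodes the cytosolic HMG-CoA synthase, which opens the mevalonate branch, and was read by 4 tested probe sets that carry the same sequence accession in the annotation. The brightest, 1433445_x_at, had signals of 2083.6, 2081.6 and 1895.8 (controls) against 1937.4, 1902.7 and 1603.5 (garlic-fed). The groups overlapped, garlic-fed mouse 3 was the lowest of all 6, and the log2 fold change was -0.16 ± 0.11 (SE), with an interval from -0.39 to 0.08 and a limma adjusted p of 0.642. In the array maker's names, x marks a probe set whose probes may also bind other mRNAs.
The probe set 1433446_at read 798.5, 671.7 and 770.9 (controls) against 570.2, 645.2 and 605.2 (garlic-fed). Every garlic-fed mouse lay below every control mouse, with means of 747 ± 66.7 (SD, n = 3) and 607 ± 37.5 (SD, n = 3). This 0.814-fold difference (-0.30 ± 0.12 SE in log2, interval from -0.57 to -0.02) had an unadjusted p of 0.0368 and an adjusted p of 0.417 from limma. Its unadjusted p was under 0.05 in 10 of 16 other settings. The remaining probe sets, 1433444_at and 1433443_a_at, had log2 fold changes of -0.21 (interval -0.49 to 0.06) and -0.13 (interval -0.47 to 0.21). The last of these rested on garlic-fed mouse 3 alone, with 1284.7 against 1784.8 to 1956.7 in the other 5 mice, and its log2 fold change was 0.07 without that mouse. None of these 3 departed from the brightest probe set by more than the mice varied (exact permutation test of the difference, two-sided, p = 0.4 to 0.9, where 3 mice against 3 allow no p under 0.1).

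Idi1, the isomerase that makes dimethylallyl diphosphate, was read by 2 probe sets that pointed in opposite directions. The brightest, 1451122_at, had signals of 783.5, 763.9 and 634.9 (controls) against 786.8, 846.4 and 828.7 (garlic-fed). The groups did not overlap, but garlic-fed mouse 1 exceeded control mouse 1 by 0.42% only, and the log2 fold change was 0.18 ± 0.12 (SE), with an interval from -0.10 to 0.45 and a limma adjusted p of 0.654. The probe set 1423804_a_at had signals of 551.2, 463.2 and 449.4 (controls) against 416.5, 354.9 and 519.2 (garlic-fed). Here the groups overlapped, garlic-fed mice 1 and 2 were below all controls, and the log2 fold change was -0.19 ± 0.17 (SE), with an interval from -0.57 to 0.18 and a limma adjusted p of 0.743. Over all tested probe sets, the groups did not overlap in 7.52% with garlic-fed mice higher and in 9.29% with garlic-fed mice lower. Of the 15 probe sets of the 8 genes, 2 were of the first kind and 2 of the second.

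Fdps makes farnesyl diphosphate, from which both squalene and the lipid tails of prenylated proteins derive. Its tested probe set, 1423418_at, read 765.8, 952.6 and 827.6 (controls) against 700.1, 753.6 and 990.3 (garlic-fed). Garlic-fed mouse 3 was the highest and garlic-fed mouse 1 the lowest of the 6, so that the spread within the garlic-fed group exceeded the difference between the means, 849 ± 95.2 and 815 ± 154 (SD, n = 3 each). The log2 fold change was -0.07 ± 0.15 (SE), with an interval from -0.41 to 0.27 and a limma adjusted p of 0.913. It turned positive in 3 of 16 other settings.

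Fdft1, whose product makes the first molecule committed to sterols, varied little between mice. Its brightest probe set, 1438322_x_at, had signals of 871.6, 859.3 and 814.6 (controls) against 895.6, 871 and 858.2 (garlic-fed), a log2 fold change of 0.04 ± 0.10 (SE), with an interval from -0.19 to 0.28 and a limma adjusted p of 0.919. The groups overlapped, and all 6 signals lay within 814.6 to 895.6. The other tested probe set, 1448130_at, gave 464.1, 481.2 and 419.9 (controls) against 428.8, 423.2 and 397 (garlic-fed), a log2 fold change of -0.13 ± 0.13 (SE), with an interval from -0.42 to 0.17 and a limma adjusted p of 0.79. The second relative to the first was lower in every garlic-fed mouse than in any control mouse, with a difference of -0.17 on the log2 scale (exact permutation test, two-sided, p = 0.1, the smallest it can give, and p = 0.35 adjusted over the 7 pairs of probe sets compared in the 8 genes).

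Sqle, the epoxidase that adds oxygen to squalene, had 1 probe set, 1415993_at, with signals of 475.5, 409 and 291.3 (controls) against 341.9, 392.5 and 389.1 (garlic-fed). Control mice 1 and 3 were the highest and the lowest of the 6, and all garlic-fed mice lay between them. The difference turned positive in 5 of 16 other settings, among them without control mouse 1 (0.12) and with median centring (0.04). Its log2 fold change of -0.04 had the largest standard error of the 15 probe sets, 0.19 (interval -0.46 to 0.38, adjusted p = 0.964 from limma).

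Cyp51 encodes lanosterol demethylase, an early enzyme of the conversion of lanosterol to cholesterol. Its brightest probe set, 1450646_at, read 575.7, 507.9 and 443 (controls) against 433.7, 470.3 and 407.7 (garlic-fed), a log2 fold change of -0.21 ± 0.14 (SE), with an interval from -0.53 to 0.11 and a limma adjusted p of 0.649. The groups overlapped, since control mouse 3 was below garlic-fed mouse 2. The probe set 1422533_at read 337.2, 295.3 and 249.6 (controls) against 225.5, 208.7 and 277.2 (garlic-fed). Its log2 fold change, -0.31 ± 0.18 (SE), with an interval from -0.72 to 0.10 and a limma adjusted p of 0.597, was the lowest of the 15, and here too the groups overlapped.

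Insig1, the sterol-sensitive anchor of the SREBP precursor, had 1 probe set, 1454671_at. Its signals were 875.1, 791.4 and 696.6 (controls) against 643.1, 641.5 and 658.1 (garlic-fed). The garlic-fed mice lay close together and below all controls, with means of 788 ± 89.3 and 648 ± 9.16 (SD, n = 3 each). This 0.826-fold difference (-0.28 ± 0.12 SE in log2, interval from -0.55 to -0.002) had an unadjusted p of 0.049 and an adjusted p of 0.453 from limma. Its unadjusted p was under 0.05 in 5 of 16 other settings, and its log2 fold change lay between -0.36 and -0.19 in all 16.

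Srebf2, the gene of SREBP2, was read by 2 probe sets that carry the same sequence accession, and they pointed in opposite directions. The brightest, 1426744_at, had signals of 1274, 1187.3 and 1131.4 (controls) against 1170.7, 1168.6 and 912.3 (garlic-fed). The groups overlapped, with garlic-fed mouse 3 the lowest, and the log2 fold change was -0.15 ± 0.13 (SE), with an interval from -0.43 to 0.13 and a limma adjusted p of 0.726. Without that mouse the log2 fold change of 1426744_at was -0.03. The probe set 1452174_at had signals of 868.8, 780.6 and 778.3 (controls) against 927, 1018.9 and 961.3 (garlic-fed). Every garlic-fed mouse was above every control mouse, a 1.20-fold difference (0.26 ± 0.11 SE in log2, interval from 0.02 to 0.51) with an unadjusted p of 0.0391 and an adjusted p of 0.426. Its unadjusted p was under 0.05 in 10 of 16 other settings.
The log2 signal of 1452174_at minus that of 1426744_at was -0.55, -0.60 and -0.54 (controls) against -0.34, -0.20 and 0.07 (garlic-fed). The groups did not overlap, and the difference of 0.41 was the largest of the 7 pairs (exact permutation test, two-sided, p = 0.1, the smallest it can give, and p = 0.35 adjusted over the 7 pairs). For Idi1 the same difference, 1423804_a_at minus 1451122_at, was -0.58 in control mice and -0.95 in garlic-fed mice on average, and the groups overlapped (p = 0.2, and 0.467 adjusted, by the same exact permutation test). For neither gene can 1 direction be given.

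**Figure D2:**
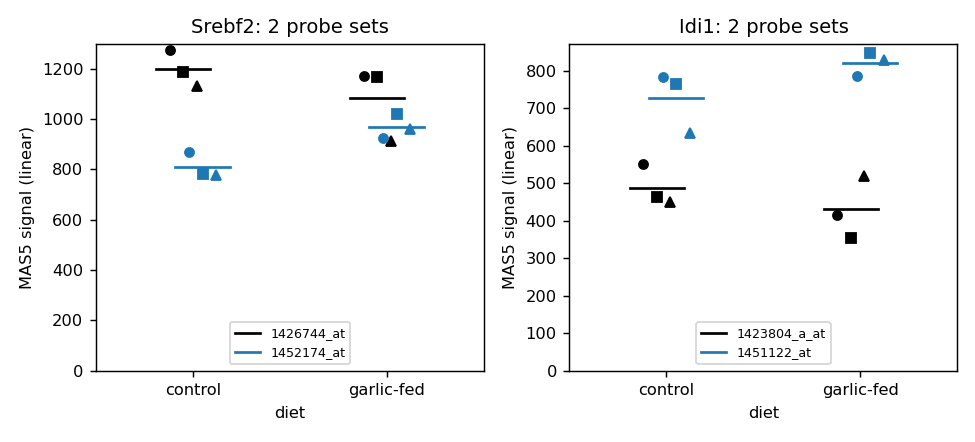
MAS5 signal (y axis, linear, from 0) of the 2 tested probe sets of Srebf2 (left) and Idi1 (right) by diet (x axis); circles, squares and triangles are mice 1, 2 and 3 of each group and lines are means of 3 mice. For Srebf2 the mean of 1426744_at goes from 1198 to 1084 and that of 1452174_at from 809 to 969; heights of different probe sets are not comparable as levels.

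Over the 15 probe sets the log2 fold changes lay between -0.31 and 0.26, 12 negative and 3 positive, with standard errors of 0.10 to 0.19. Their adjusted p lay between 0.417 and 0.964. Counted once per gene, by the brightest probe set, 6 of 8 values were negative and 2 positive, and with median centring Sqle and Fdps also turned positive. The median of the 8 was -0.11, beside -0.03 for all 12262 genes tested, of which 44.2% had a positive value. When all probe sets of each gene were averaged, it was -0.055, beside -0.036 for all genes. Without single arrays this median was -0.20 (without control mouse 3) to -0.07 (without control mouse 2), it was -0.07 without garlic-fed mouse 3, and it was -0.03 with each array centred on its median, a setting in which the median of all genes was 0.05. The 95% intervals of the 15 probe sets together reached from 0.607-fold to 1.42-fold. A difference of 1.8-fold in either direction lies outside every one of them. Of the 15 intervals 12 include 0.

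**Figure D3:**
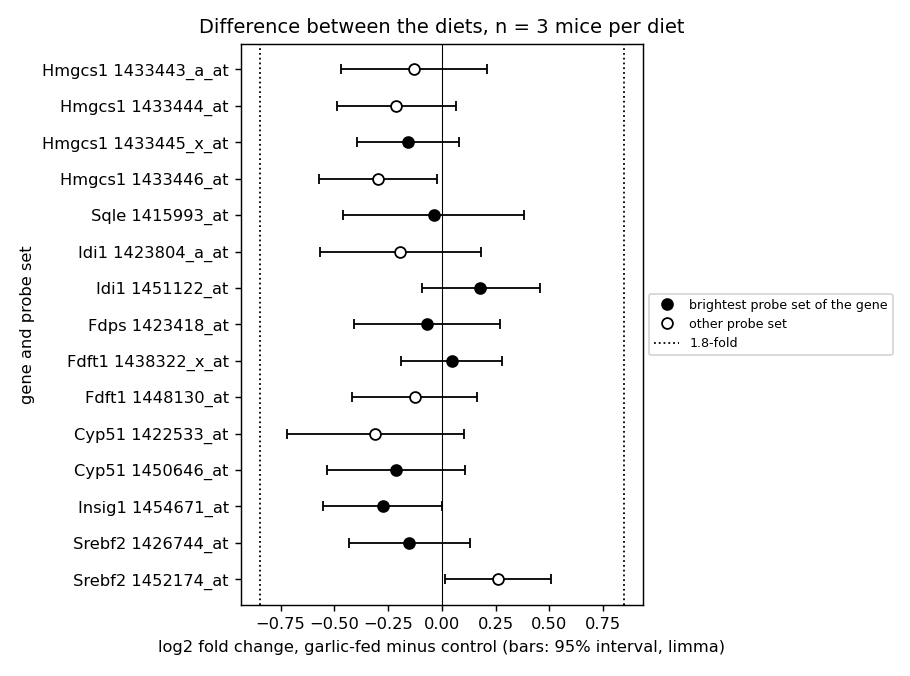
Log2 fold change of garlic-fed minus control mice (x axis) for the 15 tested probe sets (y axis), n = 3 mice per diet; points are limma estimates, filled for the brightest probe set of a gene, and bars are 95% intervals. Intervals of 12 probe sets include 0, and none reaches the dotted lines at 1.8-fold.

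The control mice differed among themselves in a common order. Control mouse 1 was the highest of the 3 controls in 12 of 15 probe sets, and control mouse 3 the lowest in 13 of 15. Over all 27022 probe sets control mouse 1 was the highest control in 36.8% and control mouse 3 the lowest in 35.6%. The probe sets of a gene share its mRNA, so these counts are not over independent values. Relative to the control mean, the median log2 signal of the 8 genes was 0.10, 0.03 and -0.13 in control mice 1, 2 and 3. In garlic-fed mice 1, 2 and 3 it was -0.11, -0.06 and -0.12. All 3 garlic-fed spleens thus lay between the medians of control mice 2 and 3.
Sqle showed this order of the controls, with 475.5 in mouse 1 and 291.3 in mouse 3, and Cyp51 and Insig1 showed it as well. Across the 6 arrays, the correlation of a gene with the mean of the other 7 was 0.87 for Cyp51, 0.78 for Sqle and 0.76 for Insig1, and it was 0.14 for Idi1 and -0.21 for Fdps. These 6 points share the diet groups and the scaling of the arrays, and they are given as a description.

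Of 93 further genes of sterol and fatty acid metabolism in 5 lists, 80 were tested, out of 81 that the array annotation names. The other 12 were not analysed here, among them genes of both synthesis and uptake. None of the 80 passed the adjusted threshold, beside 0.351% of all genes tested. At an unadjusted p under 0.05, 10 of 80 (12.5%) were higher, beside 6.89% of all genes, and 2 of 80 (2.5%) were lower, beside 6.24%. Without control mouse 1 the count of higher genes was 5, without garlic-fed mouse 2 it was 6, and without both control mouse 1 and garlic-fed mouse 2 it was 4, with none lower. The count of lower genes was 5 without control mouse 3. Median centring of the arrays gave 11 higher and 1 lower. The methods' own test gave 7 higher and 2 lower. Scd1, a desaturase of the fatty acid synthesis list, had a log2 fold change of 0.31 with all arrays (limma adjusted p of 0.601). Its signal in garlic-fed mouse 3, 6754.5, lay below all controls (7555.1 to 8322.3). Without that mouse Scd1 passed the adjusted threshold (adjusted p of 0.0216 from limma). The 2 garlic-fed mice left had fat tissue genes that summed to 7818 and 8985, against 2225 in garlic-fed mouse 3. In control mice these genes summed to 2419 to 3719. The part of fat tissue in the value of Scd1 was not tested.

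The other enzymes of cholesterol synthesis had mostly small values. Of 14 tested, 11 were negative and 3 positive, and the median was -0.07 (0.005 with median centring). At an unadjusted p under 0.05, 1 (7.14%) was higher and none lower, beside 6.89% and 6.24% of all genes. That 1 was Lbr, the lamin B receptor of the nuclear envelope, which also acts as a sterol reductase. Its signals were 7076.2, 7599.7 and 7226.6 (controls) against 8726.8, 9390.9 and 10245.7 (garlic-fed), without overlap (0.37 ± 0.08 SE in log2, limma adjusted p of 0.115). Nsdhl and Msmo1, which act together in the removal of methyl groups from sterols, had log2 fold changes of -0.24 (interval -0.57 to 0.09) and -0.25 (interval -0.60 to 0.10).

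Among 13 genes that control SREBP and the sterol enzymes, 2 (15.4%) were above the controls with an unadjusted p under 0.05, beside 6.89% of all genes. At the same threshold 1 (7.69%) was below, beside 6.24% of all genes. The median was 0.07, but -0.01 when all probe sets of each gene were averaged and -0.02 without garlic-fed mouse 1. Nfya, a subunit of NF-Y, had a log2 fold change of 0.38 ± 0.11 (SE, limma adjusted p of 0.208), with 1119.5 to 1164.7 (controls) against 1355.5 to 1641.6 (garlic-fed). Another probe set of Nfya, 1422082_a_at, gave a log2 fold change of 0.21 with overlapping groups (limma adjusted p of 0.723). Rnf139, a ubiquitin ligase of the endoplasmic reticulum, had one of 0.26 ± 0.10 (SE, limma adjusted p of 0.397). Mbtps2, the protease that makes the last cut to release SREBP from the membrane, had one of -0.35 ± 0.11 (SE, limma adjusted p of 0.281), with signals of 820.4 to 927.3 (controls) against 667.6 to 729.8 (garlic-fed). Insig2, the relative of Insig1, had signals of 750.3 to 826 (controls) against 656.7 to 734.8 (garlic-fed) (log2 fold change -0.16, interval -0.41 to 0.10, adjusted p = 0.679), and was singled out because of this value.

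The 23 genes of sterol uptake, storage and release had a median of 0.04. At an unadjusted p under 0.05, 1 (4.35%) was higher and none lower, beside 6.89% and 6.24% of all genes. The 1 was Abcg4, which encodes a transporter of the ABC family. Its signals were 190.9, 218.8 and 216.7 (controls) against 316.9, 383 and 510.1 (garlic-fed). The groups did not overlap, and the log2 fold change was 0.92 ± 0.19 (SE, 1.90-fold, limma adjusted p of 0.0976), so that Abcg4 met the study's criterion. Without garlic-fed mouse 3 the log2 fold change was 0.74, under the 1.8-fold of that criterion. Over 16 other settings, 1 of them the methods' own test and the rest limma, its adjusted p was 0.0443 to 0.6. The lowest came with the replicate block, and the labels do not say whether replicate numbers pair the mice. Another probe set of Abcg4, 1427732_s_at, gave 0.41 (adjusted p = 0.432). Npc1, the protein that moves cholesterol out of lysosomes, had a log2 fold change of 0.22 (interval -0.09 to 0.52, adjusted p = 0.626). Npc1l1, a sterol transporter of the intestine, had signals of 106.7, 60 and 100.9 (controls) against 39.2, 59.5 and 66.4 (garlic-fed). Its mean log2 signal of 6.09 passed the filter at 6.08 only through the controls, so its difference is given without a test.

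In the fatty acid synthesis list unadjusted p-values under 0.05 were found for 4 of 17 genes on the higher side (23.5%, beside 6.89% of all genes). On the lower side there was 1 (5.88%, beside 6.24% of all genes). The median was 0.13, beside -0.03 for all genes, but 0.05 without garlic-fed mouse 1. Me1, the malic enzyme that supplies NADPH, had a log2 fold change of 0.74 ± 0.25 (SE, limma adjusted p of 0.296), Fads1, a desaturase, one of 0.32 ± 0.12 (SE, limma adjusted p of 0.368), and Lpin1, a phosphatidate phosphatase, one of 0.27 ± 0.10 (SE, limma adjusted p of 0.368). Their other tested probe sets gave 0.43 for Me1 (1416632_at), 0.34 for Fads1 (1440444_at) and 0.14 for Lpin1 (1418288_at), each with overlapping groups. The limma adjusted p of these was 0.592 to 0.771. In garlic-fed mice 1 and 2, though not in mouse 3, genes of fat tissue were brighter as well, and their part in the values of this list was not tested. The 4 tested fat tissue genes summed to 7818, 8985 and 2225 in garlic-fed mice 1, 2 and 3 and to 2419 to 3719 in control mice. Of 13 genes of the isoprenoid branch, 2 (15.4%) were higher and none lower at the same threshold. The median was 0.04, but -0.05 when all probe sets of each gene were averaged and -0.008 without control mouse 1. Rabggtb, a subunit of the enzyme that prenylates Rab proteins, had a log2 fold change of 0.44 ± 0.10 (SE, limma adjusted p of 0.131), Fntb, a subunit of farnesyltransferase, one of 0.58 ± 0.24 (SE, limma adjusted p of 0.419), and Icmt, which methylates prenylated proteins, one of 0.29 ± 0.16 (SE, limma adjusted p of 0.558).

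**Figure D4:**
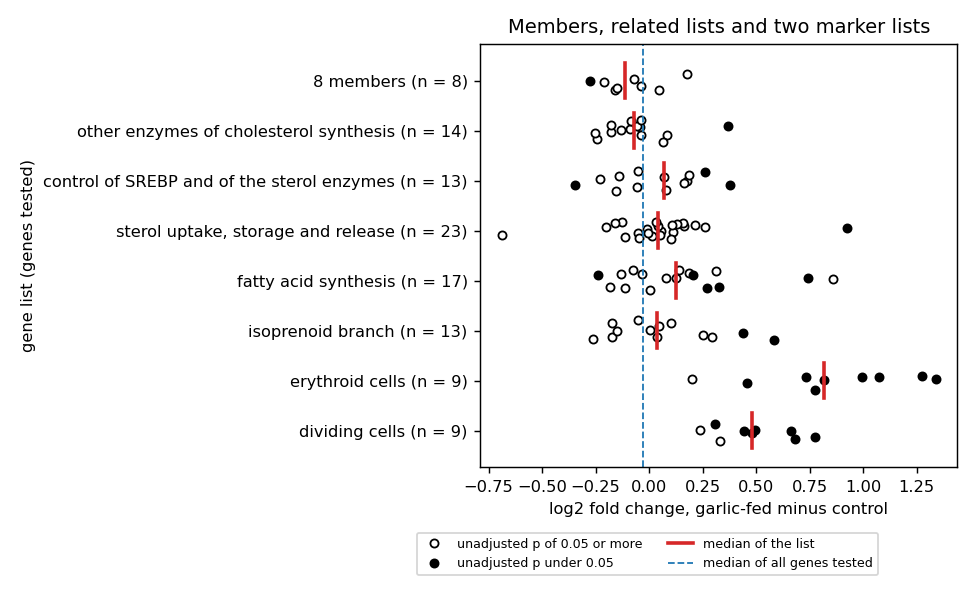
Log2 fold change of garlic-fed minus control mice (x axis) for each gene, by its brightest probe set, of the 8 cholesterol genes, 5 related lists and markers of erythroid and of dividing cells (y axis, with the number of genes tested); filled points have an unadjusted p under 0.05 and red bars are medians. The medians of the 8 genes (-0.11) and of the other synthesis enzymes (-0.07) lie left of the median of all genes (-0.03), and those of erythroid (0.82) and dividing cells (0.48) lie right of it.

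The genes whose log2 signal over the 6 arrays followed the mean of the 8 genes most closely were Prkar1a (Pearson r = 0.989), Apmap (0.983), Sntb1 (0.977), Htatsf1 (0.975) and Emc2 (0.972), out of all tested genes outside the 8. Prkar1a encodes a regulatory subunit of protein kinase A. Its signals were 6384.7, 6159 and 5662.9 (controls) against 5739, 5937.5 and 5836.3 (garlic-fed). The order of its controls, mouse 1 highest and mouse 3 lowest, is that of the mean of the 8 genes, by which it was picked. Fdps, 1 of the 8, did not show this order. These 5 genes were picked for their likeness among 12262, so the correlations describe these 6 arrays only.

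Markers of B cells (5 of 5 named on the array), T cells (5 of 5) and red pulp macrophages (7 of 7) were all above the filter. Pancreatic markers (10 of 10) and some liver markers (4 of 6) were above it too, so passing the filter does not identify the tissue. Beside 6.89% of all genes higher at an unadjusted p under 0.05, most markers of erythroid and of dividing cells were higher. Of 9 erythroid genes 8 had higher signals with an unadjusted p under 0.05, 1 of them also after adjustment, and their signals summed to 33580 to 42610 (controls) against 49270 to 70960 (garlic-fed). Of 9 genes of dividing cells 7 were higher at the same threshold, 2 of them after adjustment, with sums of 18770 to 21520 and 25840 to 34770. The summed signal of the 8 cholesterol genes was 6735 to 7705 (controls) against 6648 to 7047 (garlic-fed), so the groups overlapped in it.
In the other direction, the 5 B cell genes, the 5 T cell genes and the 6 plasma cell genes all had negative log2 fold changes, with medians of -0.16, -0.15 and -0.23. Red pulp macrophage genes had a median of 0.15, with 3 of 7 higher at an unadjusted p under 0.05. The 4 tested liver genes had a median of -0.43, and none passed the unadjusted threshold. Their signals summed to 2933, 1035 and 8227 (controls) against 730, 11373 and 1716 (garlic-fed), so that control mouse 3 and garlic-fed mouse 2 stood apart in them. All 10 pancreatic genes tested were lower at an unadjusted p under 0.05 and none after adjustment, with sums of 15270 to 119500 (controls) against 2069 to 30860 (garlic-fed), highest in control mouse 1 and garlic-fed mouse 2. Without these 2 arrays, a choice made after seeing the data, the median of the 8 cholesterol genes was -0.13. No probe set of theirs then had an unadjusted p under 0.05, with only 2 mice left per diet. The pancreatic sums of the mice kept were 15266 and 54361 (controls) against 2069 and 2199 (garlic-fed). This setting thus kept a pancreatic difference between the diets. The part of these cell types in the values of the 8 genes was not tested.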

How the data were processed

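RNA of 3 control and 3 garlic-fed spleens was hybridized, with 1 array per mouse. The authors deposited MAS5 signals, which are intensity values per probe set on a linear scale. The MAS5 version is not given in the sources used here. The trimmed mean of each array, leaving out 2% at each end, was 500.0, as read from the values. Such scaling makes every value relative to the array as a whole. The number of arrays limits the precision.

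The 64 control probe sets were left out. Gene names came from the annotation of the array, and 34741 of 34945 single names matched RefSeq by gene identifier, with 0 updated. A floor of 23.5, the 20th percentile, was applied before log2 was taken, and only probe sets whose mean log2 exceeded 6.08, the 40th percentile, were tested. Groups were compared with limma 3.58.1 (lmFit, eBayes, trend on) in R 4.3.3, two-sided, without a block, and p-values were adjusted over 27022 probe sets (Benjamini-Hochberg). A gene was represented by its brightest probe set. The procedure was tested on simulated data. Python 3.11.15 with matplotlib 3.10.9 drew the figures.

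The 8 genes, the 5 related lists and the marker lists (erythroid, dividing, pancreas, fat tissue, B, T, red pulp macrophage, plasma and liver cells) were chosen with earlier results of these data known, so no test over a list was made. Of 71 marker genes, 8 had no probe set named. Named are the 8 genes, up to 3 genes of smallest p in each related list, and the 5 genes of most similar pattern. Insig2 and Scd1 are named outside this rule, after their values were seen. Alternatives were 2 other scalings, floors and filters, no trend, the ANOVA of the methods, a replicate block, leaving out arrays, and averaging all probe sets of each gene. Replicate numbers mark separate mice. Each limma p-value sets the difference between the diets against a spread between mice that is partly estimated from other probe sets.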

Additional observations from a re-analysis of the deposited data

How the results depend on the processing

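No probe set of the 8 genes passed the adjusted threshold under any of 16 other settings, with the lowest adjusted p, 0.300, for 1452174_at of Srebf2. The median of the 8 genes stayed negative in all 17 settings, which include averaging all probe sets of each gene. The counts at an unadjusted p under 0.05, 2 lower and 1 higher, were less stable. The lower count was 1 with quantile normalization, with a floor at the 40th percentile or with no trend of variance, and 0 with median centring or the replicate block. The higher count was 0 with no trend or the replicate block. Without single arrays the lower count was 0 to 2 and the higher count 0 to 1. Without both control mouse 1 and garlic-fed mouse 2, a setting chosen after seeing the data that leaves 2 mice per diet, both were 0.

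Of the related genes, 10 higher and 2 lower, the lower count was 1 with median centring and 4 with no filter. The higher count was 7 with no trend of variance, and 7 with the ANOVA of the methods. Without single arrays the counts were 5 to 12 higher and 1 to 5 lower, and without control mouse 1 and garlic-fed mouse 2 they were 4 and 0. The count past the adjusted threshold was 0 to 1 without single arrays, with Scd1 higher without garlic-fed mouse 3 (adjusted p = 0.0216 from limma), and 1 with the replicate block (Abcg4, adjusted p = 0.0443).

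Some small values changed sign. With median centring, Sqle was at 0.039 and Fdps at 0.008. Without single arrays, Sqle lay between -0.24 and 0.12, Fdps between -0.22 and 0.032 and 1433443_a_at of Hmgcs1 between -0.24 and 0.066. Without control mouse 1 and garlic-fed mouse 2, Sqle was at 0.08 and 1423804_a_at of Idi1 at 0.027. The cause of these changes was not tested.

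The labels do not say whether the replicate numbers pair the mice. Deviations of same-numbered mice correlated at 0.001, -0.18 and 0.08, and those of differently numbered mice at -0.15 to 0.16. Such overlapping ranges from 3 mice per diet cannot decide whether the mice were paired. With the replicate block 295 probe sets passed the adjusted threshold, beside 64 without it. With 3 mice per diet the standard errors, 0.10 to 0.19, limit what can be resolved.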
